A study of Mus musculus with 4 samples.

Results

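The AP-1 transcription factor is a pair of basic leucine zipper proteins, and the genes of its subunits examined here are Fos, Fosb, Fosl1, Fosl2, Jun, Junb, Jund, Batf, Batf3 and Atf3. From a table of STARR-seq elements in mouse T helper 17 (Th17) cells, an element was assigned to one of these 10 genes when, among the starts of protein-coding transcripts (TSS, GENCODE M21), the one nearest to its centre belonged to that gene and lay within 100 kb. This rule took 33 of 24232 elements, and each of the 10 genes had an element. Of all protein-coding genes 52.8% had at least 1 by the same rule. STARR-seq places genomic fragments inside a reporter transcript on a plasmid, outside their chromatin, and the RNA that carries a fragment, set against the plasmid put in, reads out how strongly the fragment drove transcription.

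The data came from 4 biological replicates of 1 group. These were primary T cells of the mouse strain C57BL/6NJ, driven towards the Th17 fate and transiently transfected with the reporter library as an episome. Over 3 days they received antibodies to CD3e (0.25 µg/mL), CD28 (1 µg/mL), interleukin-4 (2 µg/mL) and interferon-gamma, together with the cytokine interleukin-6. The labels give the replicates 1 donor entry, their age as unknown and their sex as not collected, so how far they differ as animals is unknown. The labelled starting quantity was 30 µg of nucleic acid and the size range 200 to 400. A possible control experiment named in the labels is not analysed here, and the table holds no expression from which the cell type could be checked. The values combine the replicates: each element has the authors' log2 fold change, p-value and q-value. The columns carry no names, and these units, the base of the logarithm included, were read from the values. No replicate has a value of its own here, so no error between replicates can be given and depth is unknown. The direction of the fold change is not stated in the sources. It was taken as reporter RNA over input, an element with a positive value is called higher and one with a negative value lower, and the reverse reading would exchange the 2 words throughout. Every listed element has a q-value under 0.01, and by the Benjamini-Hochberg arithmetic of those q-values the table lists 21.1% of 114722 tested elements in either direction. Elements short of that threshold were not analysed here, so a gene with few listed elements may have had many or few tested.

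AP-1 proteins couple antigen receptor, costimulatory and stress signals to transcription. FOS proteins bind DNA only with a JUN partner, whereas JUN proteins also pair with themselves, and the classic site is the heptamer TGANTCA. Fos, Fosb, Jun, Junb and Atf3 are immediate early genes in many cells, switched on within minutes of a signal. BATF, which pairs with JUN proteins and binds together with IRF4, is required for Th17 differentiation, JUNB supports the Th17 programme and FOSL2 restrains parts of it.

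The stretches of sequence below carry the results that follow. They are GRCm38 sequence, at most 300 bases of each element, 5′ to 3′ on the strand of the gene, and lie outside untranslated regions. In the first 4, which come from the most strongly higher distal elements of Atf3, Junb, Fosl2 and Fos, capitals mark matches to TGANTCA in all but Junb, and also IRF and STAT (TTCNNNGAA) matches in Atf3. In Junb they mark matches to the NF-kB consensus, to the CArG box (the site of serum response factor) and to the STAT consensus; one NF-kB match there overlaps the STAT match and reads on from it without a break.
Atf3, upstream of the short transcript, chr1:191193726-191194025, minus strand: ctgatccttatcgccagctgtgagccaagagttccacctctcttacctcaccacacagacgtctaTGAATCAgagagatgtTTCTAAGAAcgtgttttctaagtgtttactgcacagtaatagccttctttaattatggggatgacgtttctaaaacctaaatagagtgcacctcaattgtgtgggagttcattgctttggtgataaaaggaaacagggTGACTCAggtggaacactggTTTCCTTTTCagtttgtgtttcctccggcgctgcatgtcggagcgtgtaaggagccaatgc
Junb, past the 3′ end of the gene, chr8:84976368-84976667, minus strand: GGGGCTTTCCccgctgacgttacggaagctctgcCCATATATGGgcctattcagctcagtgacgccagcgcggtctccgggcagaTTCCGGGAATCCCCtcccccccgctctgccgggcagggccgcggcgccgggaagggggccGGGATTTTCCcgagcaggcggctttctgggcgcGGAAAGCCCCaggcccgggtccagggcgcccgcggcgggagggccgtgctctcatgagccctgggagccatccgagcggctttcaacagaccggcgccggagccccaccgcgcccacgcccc
Fosl2, far upstream (the whole element), chr5:32055701-32055975, plus strand: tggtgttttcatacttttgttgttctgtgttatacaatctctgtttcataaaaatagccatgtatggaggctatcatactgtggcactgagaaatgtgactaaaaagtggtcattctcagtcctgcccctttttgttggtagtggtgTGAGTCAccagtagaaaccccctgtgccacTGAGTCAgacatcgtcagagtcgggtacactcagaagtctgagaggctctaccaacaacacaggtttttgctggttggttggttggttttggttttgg
Fos, far downstream, chr12:85519601-85519900, plus strand: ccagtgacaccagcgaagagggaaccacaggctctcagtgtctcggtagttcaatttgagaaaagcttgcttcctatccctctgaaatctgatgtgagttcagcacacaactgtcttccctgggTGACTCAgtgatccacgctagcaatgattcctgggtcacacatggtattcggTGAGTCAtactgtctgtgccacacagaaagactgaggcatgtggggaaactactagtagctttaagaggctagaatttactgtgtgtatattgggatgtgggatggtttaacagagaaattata

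A pair of neighbours downstream of Batf3 is shown because they lie 1225 bp apart and point in opposite directions. Capitals mark TGANTCA and TTCNNNGAA matches, of which the lower element has none; the higher one has a further TGANTCA match outside the stretch printed.
Batf3, higher element, chr1:191124088-191124387, plus strand: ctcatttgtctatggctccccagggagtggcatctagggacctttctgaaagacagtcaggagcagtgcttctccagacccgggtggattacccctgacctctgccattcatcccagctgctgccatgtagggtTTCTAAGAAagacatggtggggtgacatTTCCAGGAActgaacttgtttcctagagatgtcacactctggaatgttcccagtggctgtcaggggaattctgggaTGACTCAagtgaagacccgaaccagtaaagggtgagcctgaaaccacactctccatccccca
Batf3, lower element, chr1:191125901-191126200, plus strand: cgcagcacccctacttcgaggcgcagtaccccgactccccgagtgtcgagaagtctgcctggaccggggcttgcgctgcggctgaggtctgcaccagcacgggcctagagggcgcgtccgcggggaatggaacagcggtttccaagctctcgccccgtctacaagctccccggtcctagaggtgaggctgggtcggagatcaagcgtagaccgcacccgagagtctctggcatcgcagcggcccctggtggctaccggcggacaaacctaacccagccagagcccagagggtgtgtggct

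The promoters of Fos and Jun are shown because both were higher, against most promoters of the table. Capitals mark the CArG box of Fos and, in Jun, the match to TGACNTCA, a site form that JUN bound with ATF2 recognises.
Fos promoter, chr12:85473581-85473880, plus strand: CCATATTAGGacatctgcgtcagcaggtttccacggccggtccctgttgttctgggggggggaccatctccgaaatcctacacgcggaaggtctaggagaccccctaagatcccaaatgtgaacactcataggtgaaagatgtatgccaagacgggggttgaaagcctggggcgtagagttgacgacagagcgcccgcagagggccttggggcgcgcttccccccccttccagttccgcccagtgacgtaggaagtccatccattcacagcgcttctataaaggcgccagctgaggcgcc
Jun promoter, chr4:95052223-95052522, minus strand: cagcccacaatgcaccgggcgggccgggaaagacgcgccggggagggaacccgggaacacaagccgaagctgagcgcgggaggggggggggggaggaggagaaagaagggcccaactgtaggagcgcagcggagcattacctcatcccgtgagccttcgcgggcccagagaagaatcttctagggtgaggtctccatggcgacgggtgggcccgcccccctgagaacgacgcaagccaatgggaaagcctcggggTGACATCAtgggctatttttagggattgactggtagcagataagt

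Most elements at the AP-1 loci were higher. Of the 33 elements 22 were higher and 11 lower, and their median log2 fold change was 0.95; among all 22068 listed elements within 100 kb of a coding TSS 45.7% were higher and the median was -0.77. The direction rests on the nearest-TSS rule: taking every element within 100 kb of an AP-1 TSS, also those nearer to another gene, gave 35 higher and 52 lower elements with a median of -0.81. The 9 promoter-proximal elements, those centred within 1 kb of a coding TSS, split into 4 higher and 5 lower, beside 13.3% higher of all 9508 such elements. The 24 distal elements split into 18 higher and 6 lower, a share near the 70.3% of all 12560 distal elements within 100 kb. No share was tested against the table, because the elements are not replicates and the genes were chosen with results of these data known. Genes with higher elements alone were Fosb and Junb, genes with lower ones alone were Fosl1 and Jund, and the other 6 had both.

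By their medians the changes were smaller than those over the table. For the 22 higher elements the median log2 fold change was 1.10, against 1.44 for all linked higher elements. Of these 22, 16 (72.7%) reached 1, near the 75.4% of all linked higher elements, and 3 (13.6%) reached 2, against 26.9%. For the 11 lower elements the median was -1.05, against -1.33 over the table. Of these 11, 6 (54.5%) reached -1, against 75.3% of all linked lower elements. None reached -2, a value that 18.8% of all linked lower elements reached. By the authors' p-value 2 elements were among the top 1% of the table, that of Atf3 at rank 18 and that of Junb at rank 170.

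**Figure D1:**
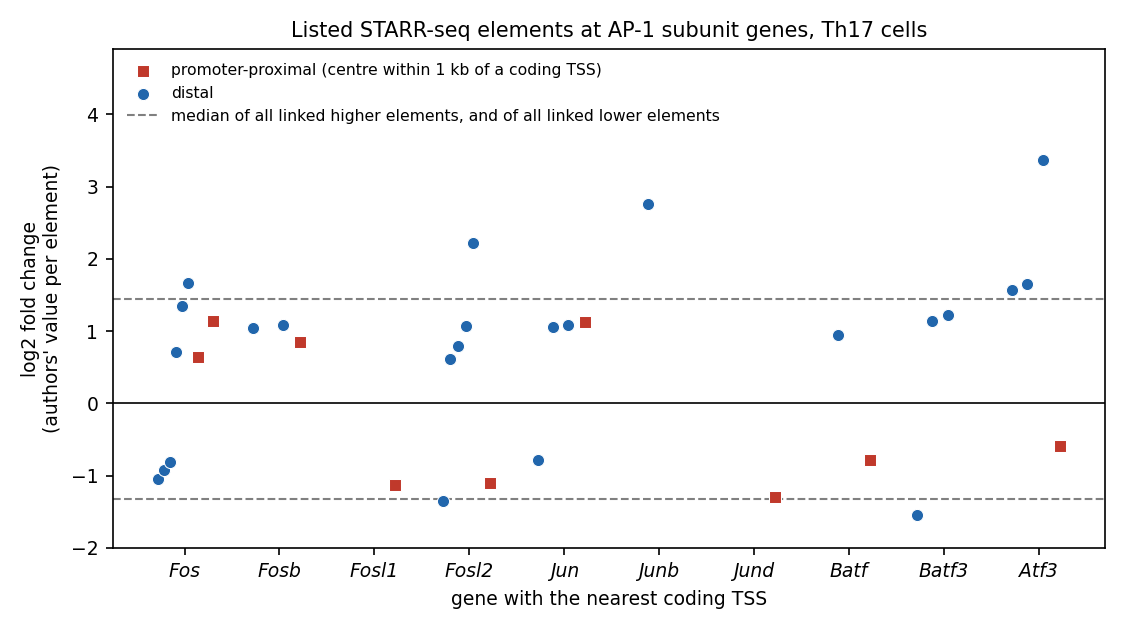
Log2 fold change (vertical axis, the authors' value per element over 4 replicates) of the 33 listed elements by gene. Red squares are promoter-proximal and blue circles distal elements, and dashed lines mark the medians of all linked higher (1.44) and lower (-1.33) elements; the Atf3 element at 3.36 and the Junb element at 2.76 stand highest.

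Fos, the prototype of the family, had 8 listed elements on chromosome 12, more than any other member. At least as many were linked to 0.536% of protein-coding genes. For the other members this share ran from 1.59% (Fosl2, 6 elements) to 52.8% (Fosl1, Junb and Jund, 1 element each). Of the 8 Fos elements 5 were higher and 3 lower. The promoter element (chr12:85473476-85474175) spanned the TSS at 85473890 and was higher at 0.64 (q = 0.000498). A second element started 100 bp beyond it, centred 673 bp downstream of the TSS in the first part of the gene (chr12:85474276-85474850), and was higher at 1.13 (q = 1.61e-06). Both Fos promoter-proximal elements were thus on the side taken by the minority of promoters.

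Around the Fos promoter, higher and lower distal elements alternated. Upstream, an element 43.2 kb away was lower (-0.92, q = 0.00487), one 29.0 kb away higher (1.35, q = 1.85e-06), one 26.7 kb away lower (-0.81, q = 0.00541) and one 18.5 kb away higher (0.71, q = 3.2e-05). Downstream, the element 12.2 kb away was lower (-1.05, q = 0.00204) and the one 45.9 kb away (chr12:85519576-85519925), with TGANTCA matches 52 bp apart, was the highest of the locus at 1.66 (q = 1.35e-08). The 3 lower elements had q-values between 0.00204 and 0.00541 and the 5 higher ones q-values of at most 0.000498, so every lower element of this locus had weaker support in the authors' test than every higher one.

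Fosb, which encodes a partner of JUN close to FOS, had 3 elements on chromosome 7, all higher and close to each other in size. The one in the gene, 900 bp downstream of the nearest TSS (chr7:19308326-19309075), was at 0.85 (q = 4.77e-05). The upstream elements, 11.6 kb and 16.0 kb away in introns of the noncoding gene D830036C21Rik, were at 1.08 (q = 2.37e-08) and 1.05 (q = 2.95e-05). The first counts as promoter-proximal only through the coding transcript that starts at 19309600; from the RefSeq TSS its centre lies 1344 bp away.

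Fosl1, encoding FRA-1, had 1 element, at its promoter (chr19:5447501-5448325). It was lower at -1.13 (q = 0.00443) and holds a TGANTCA match 195 bp downstream of the nearest TSS. Fosl2, encoding FRA-2, had 6 elements on chromosome 5, and 1.59% of protein-coding genes had as many or more. Its promoter (chr5:32135201-32136025) was lower at -1.11 (q = 2.86e-07), and it too holds a TGANTCA match.

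All 5 distal elements of Fosl2 lay upstream. The highest, of 275 bp and 79963 bp away in an intron of Babam2 (chr5:32055701-32055975), reached 2.22 (4.67-fold, q = 2.73e-12) and carries its TGANTCA matches 13 and 43 bp from its centre. A second intronic element of Babam2, 99.8 kb away and just inside the 100 kb limit, was at 1.07 (q = 6.2e-07) with 3 matches, the largest number at these loci. Elements 31.4 kb (0.79, q = 2.75e-05) and 2338 bp away (0.61, q = 0.00425) were higher as well. The element 46.3 kb away was lower at -1.35 (q = 0.00661), although it holds 2 TGANTCA matches, and is the only lower one of the distal elements with a match.

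Jun, the gene of c-JUN, had 4 elements within 100 kb on chromosome 4, 3 of them higher. The promoter element was the longest at these loci, with 1575 bp (chr4:95051901-95053475), and was higher at 1.13 (2.18-fold, q = 7.88e-10). Of the 9 promoter-proximal elements it had the second highest value, just under the 1.13 of the downstream Fos element. It also covers starts of Junos, the antisense transcript of the locus, and its value cannot be assigned to either gene.

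The distal elements of Jun lay between -0.79 and 1.08. One lay 16.6 kb downstream of the TSS (1.08, q = 3.85e-06), and one 71.2 kb upstream in an intron of Junos (1.06, q = 0.00168) holds a TGANTCA match 8 bp from its centre. Between them, 54.2 kb upstream, an element without a match was lower (-0.79, q = 0.00198). Beyond 100 kb, and so not counted, lay elements 109254 bp away (-0.84), 135991 bp away (2.21, q = 2.97e-16) and 251241 bp away (1.54). The one at 135991 bp was higher than any counted element of Jun, whereas the counted elements closest to the limit are those of Fosl2 at 99.8 kb (1.07) and 79963 bp (2.22).

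Junb had 1 listed element, and none at its promoter. The element (chr8:84976176-84976800) lay 2230 bp downstream of the TSS at 84978718, past the 3′ end of the coding transcript, with its centre on an exon of a noncoding transcript of Junb. It was higher at 2.76 (6.77-fold, q = 9.1e-18). Its GC content was 69.1%, in the top decile of the table, where 11 of 249 distal elements were higher (4.42%). Among those 249 elements the Junb element ranked 7 by log2 fold change.

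The sequence of the Junb element is dense in sites of signal-driven factors. It has 4 matches to the NF-kB consensus. At least 4 occur in 28 of all listed elements (0.116%), whatever their length or GC content, and 14 of those 28 were higher. It also holds the CArG box CCATATATGG and the STAT match TTCCGGGAA. Such matches are found in 2.9% and 21.5% of listed elements of its length (within 25 bp, promoter-proximal and distal together). Of listed elements of that length 14.8% have at least 1 NF-kB match. The Junb element has no TGANTCA match. These are counts of letters and not bound sites.

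Jund had 1 element, near its TSS (chr8:70698476-70699325), lower at -1.30 (q = 7.04e-08). It holds the full cyclic AMP response element TGACGTCA, the site of CREB and ATF proteins, 210 bp upstream of the GENCODE TSS; 4.67% of listed elements of its length do. RefSeq places the start of Jund farther upstream, and from there the centre of the element is 1162 bp downstream, so that it is a promoter-proximal element in GENCODE and a distal one in RefSeq.

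Batf, the AP-1 gene most closely tied to Th17 cells, had 2 elements on chromosome 12. The promoter (chr12:85686351-85687200) was lower at -0.78, with the weakest support of the 33 (q = 0.00836). An intronic element of 1100 bp, 18.9 kb downstream, was higher at 0.95 (q = 1.21e-05). Neither has a TGANTCA match, a full CRE or a composite site of BATF with IRF4. Most listed elements of their lengths lack them too: 20.2% and 17.8% have TGANTCA and 4.67% and 5.41% a full CRE. Each composite occurs in at most 0.849%.

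Batf3, the BATF relative known for its role in dendritic cells, had 3 elements on chromosome 1 and none at its promoter. An intronic element 6426 bp downstream of the TSS was at 1.22 (q = 5.54e-07). The pair printed above followed at 25.9 kb (1.14, q = 9.49e-06) and 27.7 kb (-1.54, q = 1.57e-06). The higher one had 49.8% GC and 2 matches each to TGANTCA and TTCNNNGAA. The lower one had 66.0% GC, none of these matches and the lowest value of all 33.

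Atf3, the gene of a stress-induced factor that pairs with JUN, had 4 elements on chromosome 1. Its short transcript starts at 191183340 and its long one 34.7 kb upstream at 191218039. The promoter of the short transcript (chr1:191182951-191183700) was lower at -0.59 (q = 0.000431). The element 10.5 kb upstream of it, in an intron of the long transcript (chr1:191193626-191194125), was the highest of the 33 at 3.36 (10.3-fold, q = 1.81e-21). Its matches TGACTCA and TGAATCA lie 72 and 82 bp from its centre, with a STAT match at 64 bp and an IRF match at 94 bp. AP-1 matches occur in 45.4% of listed elements of its length, IRF matches in 12.4% and STAT matches in 21.6%.

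The other Atf3 elements flanked the start of the long transcript. One lay 1801 bp downstream of it (1.57, q = 1.08e-10) and one 6662 bp upstream, on the noncoding gene D730003I15Rik (1.64, 1200 bp, q = 2.13e-10). Both hold a TGANTCA match. From the RefSeq start of Atf3 these elements are 32905 and 41368 bp away.

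**Figure D2:**
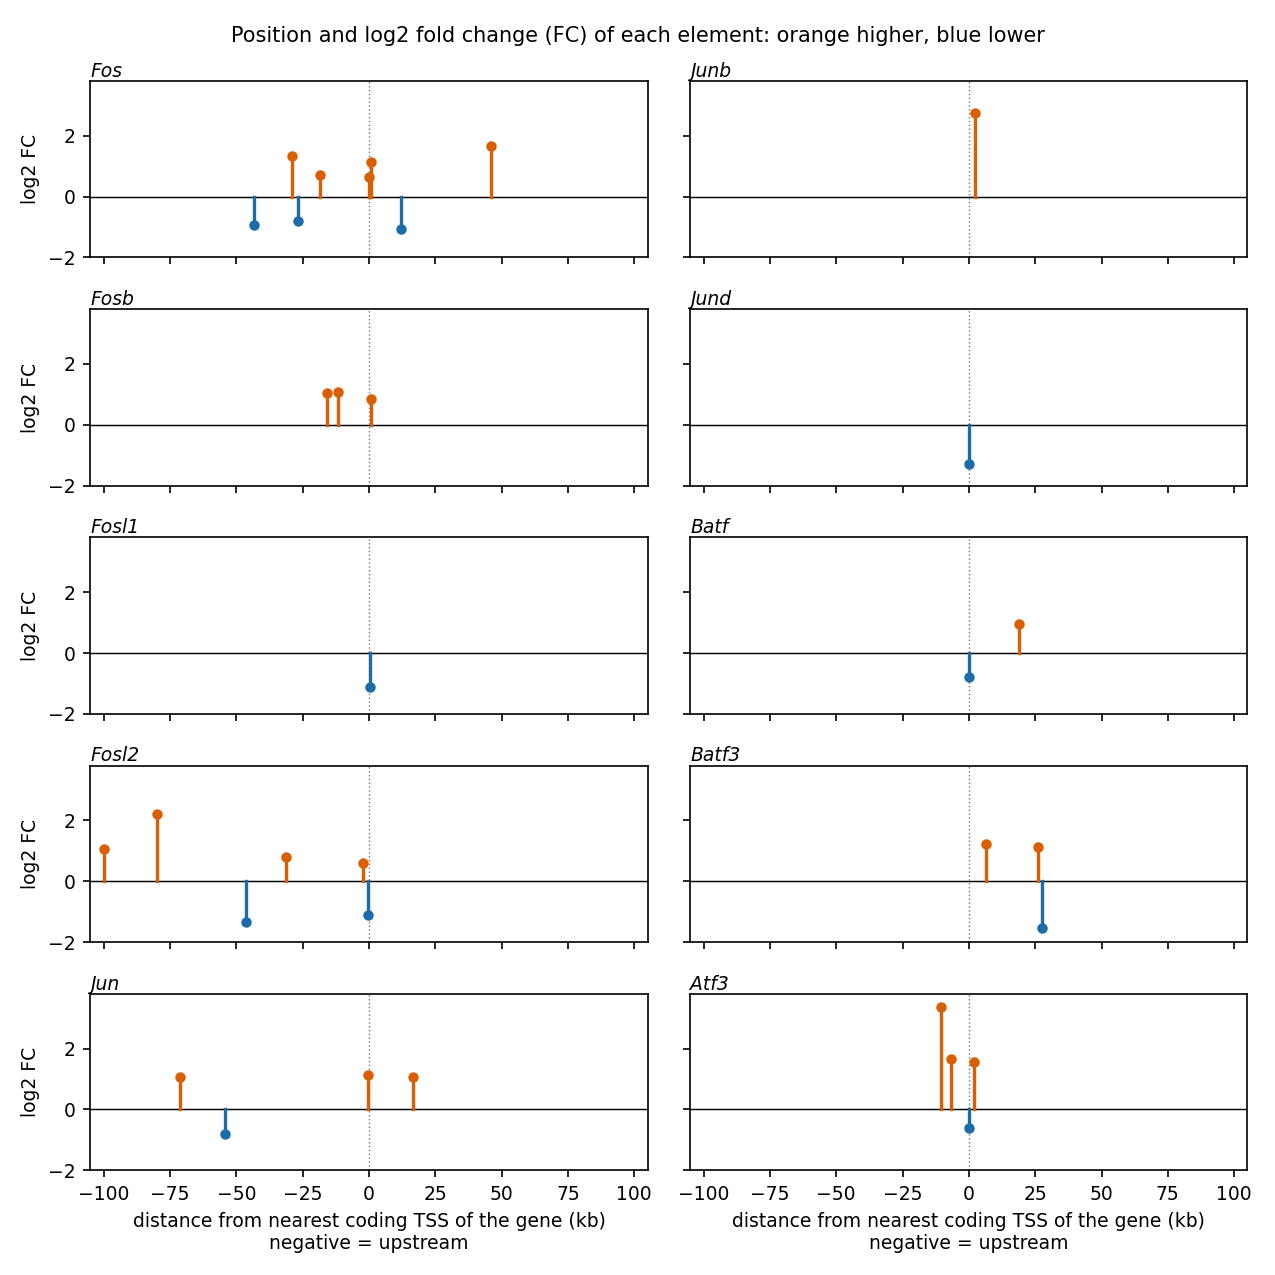
Position of each of the 33 elements (horizontal axis, kb from the nearest coding TSS of its gene, upstream negative) against its log2 fold change (vertical axis, authors' value). For Atf3 the distance is from the nearer of its 2 starts; orange stems are higher and blue stems lower elements, which stand side by side at Fos, Fosl2, Jun and Batf3.

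Higher and lower elements lay side by side at several of these loci. Of 23 pairs of neighbouring elements of the same gene, 13 pointed in opposite directions and 10 in the same direction. The share of opposite pairs over all genes was not computed, so these counts are not read as particular to the AP-1 loci. The closest opposite pair was that of Batf3, 1225 bp apart. Next came the Fosl2 promoter and the higher element upstream of it, 1350 bp apart, and the Fos elements 1800 bp apart on the upstream side. The TSSs of Fos and Batf are 212.8 kb apart with Jdp2, the gene of a JUN-dimerising repressor, between them. Of the 10 listed elements centred between those TSSs 4 were higher. The 7 elements of Jdp2 ranged from -2.26 to 1.74, with 2 higher and 5 lower. Batf3 and the short Atf3 start are 85.0 kb apart, and the gap of 56.7 kb between their nearest elements holds no other listed element.

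GC content went with direction over the table, and several AP-1 elements stood on the minority side of their GC class. The share of higher elements among distal ones fell from 91.1% in the lowest GC decile to 4.42% in the highest, and among promoter-proximal ones from 82.1% to 0.828%. In the seventh decile (57.5% to 61.9% GC) 15.3% of promoter-proximal elements were higher, and the 3 AP-1 promoters there, those of Fos (0.64), Jun (1.13) and Fosb (0.85), all were. The Fos element at 673 bp had 56.9% GC, in a decile where 37.5% were higher. The 5 lower promoter-proximal elements were, except that of Batf (54.4% GC), in the eighth and ninth deciles, where 7.79% and 3.79% of promoter-proximal elements were higher. Among distal elements 4 higher ones were on the minority side too, the Junb element, that of Fosl2 at 2338 bp (64.3% GC, where 14.2% were higher), and those of Fos 18.5 kb upstream (58.2% GC) and Atf3 at 6662 bp (59.2% GC), where 30.6% were. On the other side, the lower Fos element 26.7 kb upstream had 46.1% GC, in a decile where 85.7% of distal elements were higher, and the lower Jun element 49.2%, where 80.8% were. The lower elements of Fos 43.2 kb upstream (52.2% GC) and of Fosl2 46.3 kb upstream (50.1% GC) were in a decile where 71.1% were higher. The part of GC content in these directions was not tested.

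**Figure D3:**
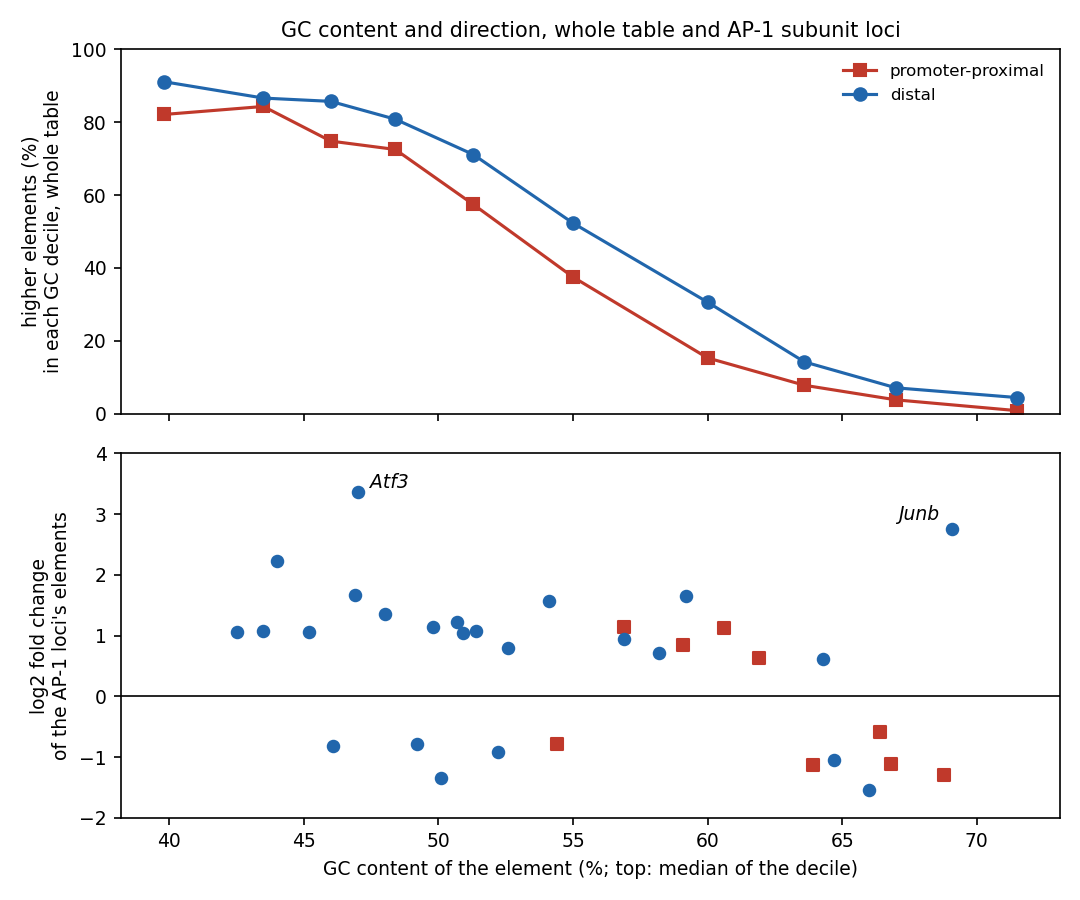
Top, share of higher elements (%) in each decile of GC content over the whole table, promoter-proximal (red squares) and distal (blue circles), drawn at the median GC of the decile. Bottom, log2 fold change of the 33 AP-1 elements against their own GC content; the Junb element lies at 69.1% GC and 2.76, where few distal elements of the table were higher.

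AP-1 matches were found at the genes that encode AP-1. TGANTCA, searched on both strands, occurred in 13 of the 24 distal elements (54.2%), against 44.1% of all distal elements within 100 kb. The distal elements at AP-1 genes were also longer (median 562.5 bp, against 450 bp), and the part of length in this share was not tested. Of the 13 with a match 12 were higher (median 1.14), and of the 11 without 6 were higher and 5 lower (median 0.61). Among listed elements of the same length (within 25 bp, both classes together) a match occurs in 41.9% for the Fosl2 element of 275 bp. It occurs in 41.2% for the Fos element 45.9 kb downstream and in 25.7% for the higher Batf3 element of the printed pair. Of all promoter-proximal elements 12.5% have a match, so these shares are not those of distal elements alone. Of all linked distal elements, 86.2% of those with a match and 57.7% of those without were higher. Promoters included, 15 of the 33 elements (45.5%) had a match, against 30.5% of all linked elements. All 15 also hold the stricter form TGACTCA or TGAGTCA, as do 5504 of the 6727 linked elements with a match.

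Elements with several matches were 7 of the 24 distal ones, 6 of them higher; 12.4% of all distal elements had 2 or more, and 91.5% of those were higher. Genes with such elements were Fos, Jun, Fosl2 (3 elements), Batf3 and Atf3. The 2 promoter-proximal elements with a match, of Fosl1 and Fosl2, were both lower. Most elements of that class with a match were lower too, and 32.6% were higher. The spaced and adjacent composites of BATF with IRF had no match at any of the 33. They are present in 0.757% and 1.07% of all linked elements, and in 1.23% and 1.72% of the distal ones.

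CArG boxes, which serum response factor binds at immediate early genes, occurred in 4 of the 33 elements, against 2.15% of all linked elements. They were in the Fos promoter, 304 bp upstream of the TSS (CCATATTAGG), in the Fos element 12.2 kb downstream, 6 bp from its centre (CCATATTTGG), in the Junb element and in the Jun element 71.2 kb upstream. Of listed elements as long as the Fos promoter element 2.77% hold a CArG box, and of those as long as the element at 12.2 kb 2.86%. The Fos element at 12.2 kb was lower (-1.05) and the other 3 higher. Over all linked elements 44.3% of those with a CArG box were higher and 45.7% of those without. The Jun promoter holds TGACATCA 42 bp upstream of the TSS; TGACNTCA is present in 11.7% of the 60 listed elements of its length. NF-kB matches were in 10 of the 33 (30.3%, against 14.4% of all linked elements) and STAT matches in 7, at Atf3, Batf3, Fos, Fosl2, Jun and Junb (21.2%, against 16.5%). All 7 were higher, as were 61.7% of all linked elements with a STAT match; of the 7, 5 were distal, a class in which 80.4% of elements with the match were higher. Some NF-kB matches overlap each other by all but 1 base, as at Fosb and Atf3.

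**Figure D4:**
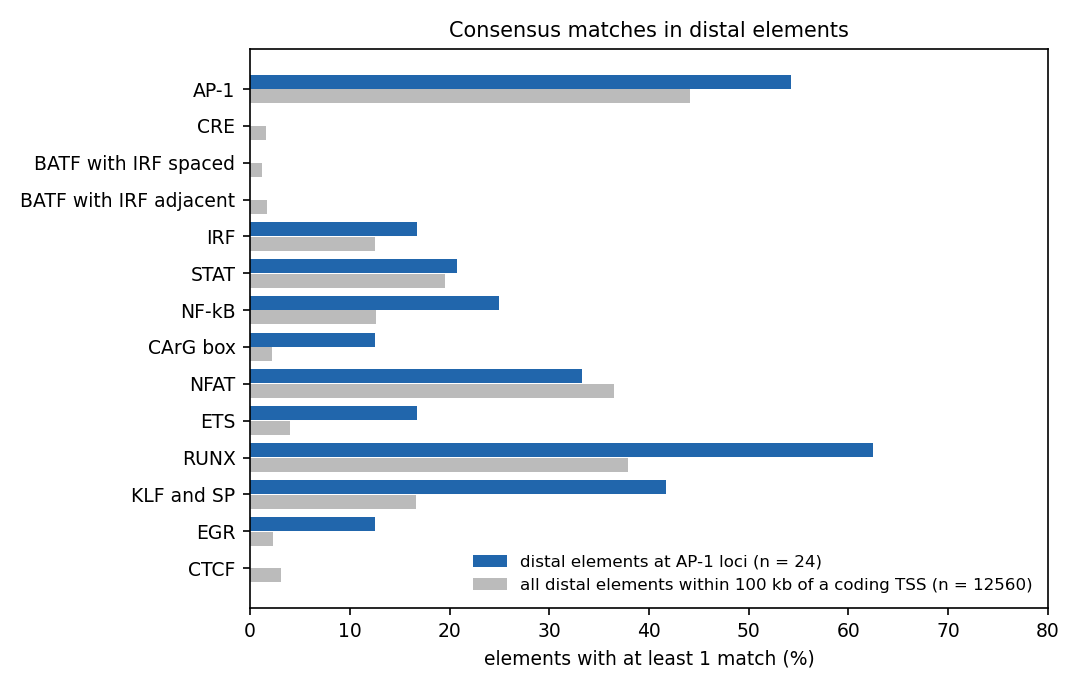
Share of distal elements with at least 1 match to each consensus (horizontal axis, %), for the 24 at AP-1 loci (blue) and for all 12560 within 100 kb of a coding TSS (grey). TGANTCA was present in 54.2% and 44.1%, and 3 of the 24 held a CArG box; the composites, CRE and CTCF have no match among the 24.

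RUNX matches (TGTGGT) were in 15 of the 24 distal elements (62.5%, against 37.9%), 12 of them higher, beside 72.8% of all distal elements with this match. KLF and SP matches (GGGCGG) were in 10 (41.7%, against 16.6%), 8 of them higher, whereas 42.0% of all distal elements with this match were. All 9 promoter-proximal elements held GGGCGG, as did 82.8% of that class in the table. ETS matches (CCGGAAG) were in 4 distal elements (16.7%, against 3.96%) and EGR matches (GCGNGGGCG) in 3 (12.5%, against 2.26%). Of these 2 of 4 and 2 of 3 were higher, beside 52.0% and 19.7% of all distal elements with the match. NFAT matches (TGGAAA) were in 8 (33.3%, against 36.5%), and 4 of the 8 were higher, beside 76.3%. No CTCF match was found, and 3.14% of all distal elements have one. The distal elements at AP-1 genes were longer than all distal ones (median 562.5 bp, against 450 bp). They also had more GC (median 50.8%, against 48.0%). The part of length and GC content in these shares was not tested.

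The location of the distal elements was close to that of the table. Of the 24 distal elements 12 were intronic and 10 intergenic, as were 6586 and 4732 of all 12560. The median share of repeat-masked bases was 7.1% over the 33 and 6.48% over all linked elements. By class it was 7.09% for the distal elements, against 9.5% of all distal ones, and 8.13% for the promoter-proximal ones, against 4.42% of that class. Of the 33 centres 14 lay in introns, 12 of them higher, and 13 between genes, 7 of them higher. Those on untranslated regions, the promoters of Fosl1, Batf and Atf3, were lower, as most promoter-proximal elements of the table were. The 3 on noncoding exons were higher; 2 of them were distal, and 61.0% of all distal elements on noncoding exons were higher. Intronic distal elements were higher in 10 of 12 cases and intergenic distal ones in 6 of 10, with 72.7% for each in the table. No element had more than 28.1% of repeat-masked bases, and none of the 33 had a near-identical copy (at least 95% identity over at least 90% of its length) elsewhere on the chromosomes, as tested by alignment to the reference.

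Other genes of the pathway were set beside the subunits from 3 lists of relatives and regulators. Elements were linked to 22 of 26 other basic leucine zipper genes, 18 of 20 upstream kinases and serum response regulators and all 5 partner genes (Irf4, Irf8, Nfatc1, Nfatc2 and Nfatc3). Of all protein-coding genes 52.8% had a linked element. The relatives had 41 higher and 37 lower elements, the upstream regulators 32 and 27, and the partners 15 and 15. In all, 88 of 167 elements were higher (52.7%), with 83 of 116 distal and 5 of 51 promoter-proximal ones. At the AP-1 subunit genes 18 of 24 distal and 4 of 9 promoter-proximal elements were higher. Among all listed elements within 100 kb of a coding TSS the share was 45.7%. By class it was 70.3% for distal and 13.3% for promoter-proximal elements. The element with the smallest p was highest for Crem (3.71), a cyclic AMP-responsive factor gene, Irf8 (3.43), Maf (3.06) and Bach2 (3.03), whose product competes for AP-1 sites. It was lowest for Mafa (-2.87), the kinase gene Map2k4 (-2.60), Atf1 (-2.59) and Mafg (-2.14), each within 210 bp of the TSS.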

How the data were processed

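Per the file headers, the authors derived the deposited element table from the alignments of all 4 replicates on mm10. The authors' values for each element were taken, from their range, as a log2 fold change, a p-value and a q-value. The aligner and the caller were not given in the sources used here. Starts count from 1, since length equalled end minus start plus 1 in all 24232 elements. Adjusting the p-values by Benjamini-Hochberg over 114722 tests gave the deposited q-values to a relative tolerance of 1e-06. Elements were linked to coding TSSs of GENCODE M21 by their centre. GC content, repeats and consensus matches on both strands came from the GRCm38 sequence (pysam 0.24.0); copies were sought with minimap2 2.31-r1302. The linking, motif search and adjustment were checked on simulated data. The 10 genes, the lists, the motifs and the choice of printed sequences were made with earlier results of these data known. All 10 genes and, of the pathway lists, the 4 highest and 4 lowest genes by their smallest-p element are named. No test was made between sets of elements, since elements are not replicates. The alternatives were other link distances, annotations, thresholds, motif forms and leaving out 1 gene.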

Additional observations from a re-analysis of the deposited data

How the results depend on the processing

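The main counts were 22 higher and 11 lower elements, 4 higher promoter-proximal and 18 higher distal ones, 15 with TGANTCA and a median log2 fold change of 0.949. Links within 20 kb left 6 lower, 11 higher distal and 8 with TGANTCA. Any AP-1 TSS within 100 kb, nearest or not, took in elements of neighbouring genes and gave 35 higher, 52 lower, 30 higher distal and 32 with TGANTCA, with the median reversed to -0.808. The nearest TSS among all GENCODE transcripts left 7 higher, 6 lower, 3 higher distal and 4 with TGANTCA, as nearer starts of noncoding transcripts of other genes took the rest. A q under 0.001 left 4 lower. Elements changed by at least 1 on the log2 scale in either direction held 6 lower and 2 higher promoter-proximal elements, as did leaving out Fos and a promoter limit of 500 bp for the latter (2 each). With RefSeq starts, chosen after seeing the data, 21 were higher, 3 of them promoter-proximal. The remaining alternative values stayed within 1.5 times the main count, or within 1 standard deviation of the median. Leaving out replicates was not run, since the table has no values per replicate, and no paired analysis was possible because there is 1 group. Depth is unknown, so what it limits cannot be stated.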
